A study of Homo sapiens with 6 samples.

Results

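The genes described are 10 amino-acid transporter genes of the plasma membrane, SLC7A11, SLC7A5, SLC3A2, SLC6A9, SLC7A3, SLC7A1, SLC1A4, SLC1A5, SLC38A2 and SLC38A1, in HEK-293T cells with and without THUMPD1. They were taken by symbol from the 58870 genes of the count table, and all 10 reached a counts-per-million value (CPM) of at least 1 in at least 3 of the 6 libraries, as did 15088 genes in total. RNA sequencing compared 3 wild-type (WT) libraries with 3 THUMPD1 knockout (KO) libraries of HEK-293T, an immortalized human embryonic kidney line. THUMPD1 is the adaptor through which the acetyltransferase NAT10 places acetylcytidine on tRNA for leucine and serine. The KO cells were a single CRISPR-Cas9 clone obtained by cell sorting, so that an effect of the clone and an effect of THUMPD1 cannot be told apart. Both lines were cultured in DMEM and no treatment is named for either.

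Amino acids cross the plasma membrane through proteins of several solute carrier (SLC) families, and many of these are exchangers that export one amino acid while importing another. SLC3A2 is a heavy chain that pairs with light chains of the SLC7 family, among them SLC7A5, which exchanges leucine and other large neutral amino acids, and SLC7A11, which imports cystine in exchange for glutamate. Many genes of amino-acid uptake are transcribed more when ATF4, a transcription factor of the integrated stress response, is made. ATF4 binds C/EBP-ATF response elements together with C/EBP proteins, whereas NFE2L2 binds antioxidant response elements in genes such as SLC7A11.

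Total expected counts lay between 32225646 and 44099898 per library, and 1 CPM stood for 32.2 to 44.1 read pairs. THUMPD1 measured 80.9 ± 3.65 CPM in WT and 11.04 ± 0.918 CPM in THUMPD1 KO (SD, n = 3), 13.6% of WT, with no overlap (exact permutation test, p = 0.1, the smallest that 3 against 3 libraries allow). Of 6 genes typical of HEK-293T, VIM, KRT8, KRT18, PAX2, LIN28B and NEFM, all were tested and 3 were called (adjusted p under 0.05 in limma-voom, on all tested genes), PAX2 higher and KRT18 and NEFM lower in THUMPD1 KO. Their summed level was 536 to 558 CPM in WT and 466 to 507 CPM in THUMPD1 KO, and the largest part was VIM (mean of 305 CPM in WT). Among the called markers the mean went from 35.3 to 5.33 CPM for NEFM, from 39.3 to 27.6 CPM for KRT18 and from 2.32 to 3.77 CPM for PAX2. Of 7 markers of blood, fibroblasts and hepatocytes, 5 (PTPRC, CD3E, DCN, ALB and APOA1) stayed at or below 0.18 CPM, COL1A1 was lower in THUMPD1 KO and LUM was not called. Their summed level was 14.2 to 18.5 CPM in WT and 10.7 to 15.4 CPM in THUMPD1 KO. The part of these markers in the results was not tested. The labels do not say whether libraries of a genotype came from separate cultures, so p values measure the spread between these libraries, which may be technical. In these bulk samples, fewer cells that carry an RNA and less of the RNA per cell cannot be told apart.

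WT replicate 1 stood apart in the transporter genes. It held the highest level of the 6 libraries for 10 of 10 genes, which was not counted over all tested genes. The summed level of the transporter genes was 2518 CPM there. It was 1776 and 1849 CPM in the other WT libraries and 1709 to 1879 CPM in THUMPD1 KO. Relative to the mean of WT replicates 2 and 3, it was 1.13-fold (SLC1A5) to 2.00-fold (SLC6A9) higher. The log2 difference exceeded 0.25 for 9 of 10 transporter genes and for 15.4% of all tested genes, whose median was 0.045. THUMPD1 KO replicate 1 exceeded this limit over its own replicates for 4 genes, SLC7A3, SLC6A9, SLC7A11 and SLC1A4, and for 10.4% of all tested genes. The change of each transporter gene between genotypes is therefore also given without WT replicate 1.

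Short stretches of the genes' promoters are shown because they hold letters that match the cores of the response elements named above. RefSeq windows of GRCh38.p14, from 250 bases before to 50 after a gene start, were given for 8 of the 10 genes (14 windows, none for SLC7A11 and SLC7A3). The core of the C/EBP-ATF response element, TGATGNAA on either strand, was in 5 of the 14 windows, from 5 of these genes, and in 3.62% of all 35116 windows. Sequences below run 5′ to 3′ on the strand of the gene, with the matched letters in capitals. Where these read as the reverse complement of the motif, the match was on the opposite strand.
SLC1A4, chr2:64989381-64989410, plus strand: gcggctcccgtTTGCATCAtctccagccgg
SLC3A2, chr11:62881725-62881748, plus strand: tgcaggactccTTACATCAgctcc
SLC38A1, chr12:46266502-46266531, minus strand: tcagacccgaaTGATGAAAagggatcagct
SLC7A1, chr13:29595663-29595692, minus strand: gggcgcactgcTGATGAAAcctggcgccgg
SLC1A5, chr19:46784893-46784922, minus strand: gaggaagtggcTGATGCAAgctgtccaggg

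The core of the antioxidant response element, TGACNNNGC on either strand, was in 4 of the 14 windows, from 4 of the 8 genes, and in 13.3% of all windows.
SLC3A2, chr11:62881652-62881680, plus strand: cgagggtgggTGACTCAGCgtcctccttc
SLC7A1, chr13:29595755-29595783, minus strand: tgcccggcggTGACGCGGCcgagcgggcc
SLC7A5, chr16:87869491-87869519, minus strand: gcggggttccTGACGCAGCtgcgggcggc
SLC1A5, chr19:46787386-46787414, minus strand: cctggatcttGCGAGGTCAgctcccgctc
These matches describe letters in the windows, not binding. SLC6A9 and SLC38A2, which have windows, held neither motif in them.

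The first question was which transporter genes differed in level between the genotypes. SLC7A11, SLC6A9, SLC7A3 and SLC1A5 fell in THUMPD1 KO, and none rose, in limma-voom with Benjamini-Hochberg adjustment over all tested genes and a threshold of 0.05. Among all tested genes, 13.0% were called lower and 26.7% were called in either direction. The estimate lay below 0 for 10 of 10 transporter genes, with a median log2 fold change of -0.21, and below 0 for 46.4% of all tested genes, with a median of 0.016. Without WT replicate 1 the calls were 2, SLC6A9 and SLC7A3, beside 28.1% of all tested genes, and the estimates of SLC7A5, SLC7A1 and SLC38A1 lay above 0. The count also rested on THUMPD1 KO libraries. In limma-voom, the only tool run on 5 libraries, it was 1 gene when THUMPD1 KO replicate 3 was left out (18.6% of all tested genes were called). It was 0 genes when THUMPD1 KO replicate 2 was left out (17.6%). On all 6 libraries 4 genes passed in the quasi-likelihood test of edgeR (25.7% of all tested genes) and 3 in DESeq2 (24.3%), and both tools called SLC6A9 and SLC7A3.

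With the replicate number as a block, limma-voom called 6 of the genes, all lower, adding SLC1A4 and SLC38A2, beside 16.7% of all tested genes called lower and 35.1% called in either direction. The labels do not say what the shared numbers mark, so this pairing is assumed. All THUMPD1 KO values lay below all WT values for 3 of 10 transporter genes (SLC6A9, SLC7A3 and SLC1A5), which was so for 17.6% of all tested genes, while 42.2% did not overlap in either direction. THUMPD1 KO was lower in each of the 3 pairs of equal replicate number for 5 of 10 transporter genes, the 3 above with SLC7A11 and SLC1A4, and for 26.2% of all tested genes. Without both libraries numbered 1, an alternative chosen after seeing the data, 5 genes were called, all lower, beside 32.4% of all tested genes called in either direction.

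**Figure D1:**
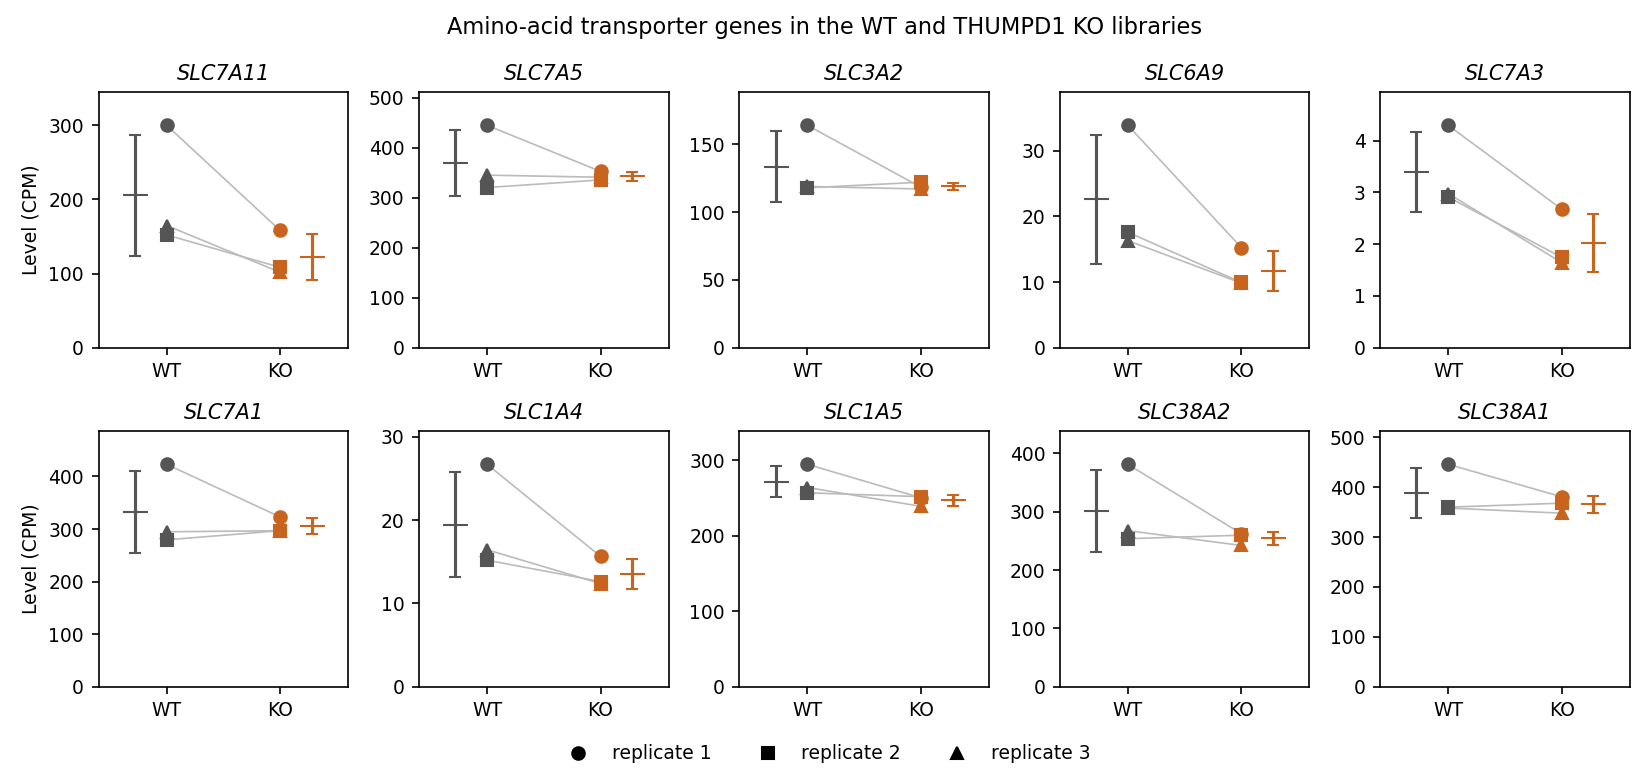
Level of each transporter gene in CPM (y axis, from 0) in the 3 WT and 3 THUMPD1 KO (KO) libraries, with lines joining equal replicate numbers and bars giving mean ± SD (n = 3). The circle of WT replicate 1 is the highest point in every panel, and the genotypes do not overlap for SLC6A9, SLC7A3 and SLC1A5.

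Of the genes of the SLC3A2 complexes, SLC7A11 fell, and the library values of SLC7A11, SLC3A2 and SLC7A5 all overlapped between genotypes. SLC7A11 (chr4:138164097-138242349, minus strand, hg38) measured 299.9, 152 and 165 CPM in WT replicates 1, 2 and 3, and 158, 108 and 102 CPM in THUMPD1 KO replicates 1, 2 and 3. WT replicate 1 was far above the rest and THUMPD1 KO replicate 1 exceeded WT replicate 2, so the groups overlapped, although each THUMPD1 KO library was below the WT library of the same number. On the log2 scale the change was -0.71 ± 0.23 (SE, with a 95% interval of -1.22 to -0.21 and an adjusted p = 0.0410 in limma-voom). It was -0.40 without WT replicate 1 (limma-voom, adjusted p = 0.0558). Leaving out THUMPD1 KO replicate 2 gave -0.63 (adjusted p = 0.144) and leaving out THUMPD1 KO replicate 3 gave -0.59 (adjusted p = 0.156), so the call was lost each time. On all 6 libraries SLC7A11 was called in edgeR (adjusted p = 0.0249) but not in DESeq2 (adjusted p = 0.126). The antisense gene SLC7A11-AS1 had at most 2 counts in any library.

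SLC3A2 (chr11:62856004-62888880, plus strand), the heavy chain, measured 164, 118 and 119 CPM in WT and 118, 122 and 117 CPM in THUMPD1 KO. Apart from WT replicate 1, the 5 libraries were nearly level. Its change was -0.17 on the log2 scale (95% interval -0.40 to 0.05, adjusted p = 0.243 in limma-voom), and -0.01 without WT replicate 1. SLC7A5 (chr16:87830023-87869507, minus strand), the leucine exchanger, measured 444, 320.1 and 345 CPM in WT and 352, 335 and 341 CPM in THUMPD1 KO. The THUMPD1 KO values lay within the WT range. Its log2 fold change of -0.11 (95% interval -0.33 to 0.11, adjusted p = 0.448 in limma-voom) became 0.04 without WT replicate 1. The pseudogene SLC7A5P1 had 157 to 205 counts and SLC7A5P2 had 0, and adding them left SLC7A5 uncalled.

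Set against the heavy chain library by library, on levels per kilobase of merged exons, SLC7A11 stood at 0.995 ± 0.191 of SLC3A2 in WT and 0.683 ± 0.175 in THUMPD1 KO (SD, n = 3, exact permutation test, p = 0.2). The WT libraries apart from replicate 1 stood at 0.854 and 0.918, on either side of the 0.885 of THUMPD1 KO replicate 1. SLC7A5 stood at 3.72 ± 0.145 and 3.86 ± 0.159 (SD, n = 3, exact permutation test, p = 0.2). Another light chain, SLC7A6, which carries cationic and neutral amino acids, stood at 0.681 ± 0.134 and 0.894 ± 0.0527 (SD, n = 3, exact permutation test, p = 0.1). For SLC7A8, a further light chain for neutral amino acids, the ratios were 0.104 ± 0.0181 and 0.115 ± 0.00915 (SD, n = 3, exact permutation test, p = 0.6). None of these tests can pass 0.05 with 3 libraries a genotype, and only the values of SLC7A6 did not overlap. The 4 ratios share SLC3A2, and adjusted over the 4 tests p was 0.267 for SLC7A11, SLC7A5 and SLC7A6 and 0.6 for SLC7A8 (exact permutation tests, Benjamini-Hochberg).

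SLC6A9, the glycine transporter of the plasma membrane, had the lowest estimate of the 10 genes. SLC6A9 (chr1:43991500-44031467, minus strand) measured 33.9, 17.6 and 16.3 CPM in WT and 15.3, 9.93 and 9.84 CPM in THUMPD1 KO. Replicate 1 was highest in both genotypes, and the groups did not overlap. Between genotypes it changed by a log2 value of -0.91 ± 0.26 (SE, with a 95% interval of -1.48 to -0.35 and an adjusted p = 0.0227 in limma-voom), and -0.58 without WT replicate 1 (adjusted p = 0.00972). Leaving out THUMPD1 KO replicate 2 (-0.82, adjusted p = 0.106 in limma-voom) or THUMPD1 KO replicate 3 (-0.83, adjusted p = 0.0926) ended the call. CCDC24, which overlaps SLC6A9 on the opposite strand, had 79 to 121 counts. The libraries were stranded but the strand setting of the counting was not stated.

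The cationic amino-acid transporters SLC7A3 and SLC7A1, which take up arginine, lysine and ornithine, stood far apart in level. SLC7A3 (chrX:70925579-70931125, minus strand) measured 4.30, 2.91 and 2.98 CPM in WT and 2.68, 1.75 and 1.64 CPM in THUMPD1 KO. This was the lowest level among the 10 genes, and the groups did not overlap. In log2 units it changed by -0.83 ± 0.19 (SE, with a 95% interval of -1.25 to -0.41 and an adjusted p = 0.00841 in limma-voom), -0.70 without WT replicate 1 (adjusted p = 0.0187) and -0.74 without THUMPD1 KO replicate 2, where the call was lost (adjusted p = 0.0502).

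SLC7A1 (chr13:29509414-29595688, minus strand), the widely expressed cationic transporter, measured 423, 279 and 295 CPM in WT and 323, 297 and 297 CPM in THUMPD1 KO. The THUMPD1 KO values all lay above those of WT replicates 2 and 3 and below WT replicate 1. Its estimate was -0.12 in log2 units (95% interval -0.40 to 0.17, adjusted p = 0.552 in limma-voom), and it became 0.09 without WT replicate 1 (adjusted p = 0.257).

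The neutral amino-acid exchangers SLC1A5 and SLC1A4 are relatives. SLC1A5 (chr19:46774883-46788594, minus strand), which imports glutamine, measured 295, 257 and 264 CPM in WT and 250.3, 252 and 239 CPM in THUMPD1 KO. The groups did not overlap, but the gap between WT replicate 2 and THUMPD1 KO replicate 2 was small. A log2 change of -0.16 ± 0.05 (SE, with a 95% interval of -0.28 to -0.04 and an adjusted p = 0.0476 in limma-voom) was estimated. The call was lost in 5 of the 6 fits on 5 libraries, with adjusted p of 0.101 without WT replicate 1 and 0.0796 without WT replicate 3. In THUMPD1 KO, leaving out replicates 1, 2 and 3 in turn gave adjusted p of 0.0665, 0.101 and 0.157 (limma-voom). On all 6 libraries SLC1A5 was called in DESeq2 (adjusted p = 0.0154) but not in edgeR (adjusted p = 0.0532).

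SLC1A4 (chr2:64988477-65023865, plus strand), which exchanges alanine, serine and cysteine, measured 26.7, 15.2 and 16.4 CPM in WT and 15.6, 12.6 and 12.4 CPM in THUMPD1 KO. THUMPD1 KO replicate 1 lay above WT replicate 2, so the groups overlapped. A log2 change of -0.49 ± 0.18 (SE, with a 95% interval of -0.88 to -0.10 and an adjusted p = 0.0656 in limma-voom) was estimated. It was called with the replicate block (-0.51, adjusted p = 0.00234 in limma-voom) and without WT replicate 2 (-0.64, adjusted p = 0.0164). The gene was also called in edgeR (-0.55, adjusted p = 0.0384) and without both libraries numbered 1 (-0.33, adjusted p = 0.00917 in limma-voom). DESeq2 did not call it (adjusted p = 0.139), and it was -0.24 without WT replicate 1 (adjusted p = 0.0789 in limma-voom).

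The sodium-coupled neutral amino-acid transporters SLC38A2 and SLC38A1 lie next to each other on chromosome 12, with 88171 bases between them. SLC38A2 (chr12:46358188-46372773, minus strand), whose expression is known to follow amino-acid supply, measured 381, 254 and 268 CPM in WT and 262.3, 259.7 and 242 CPM in THUMPD1 KO. A log2 change of -0.24 (95% interval -0.51 to 0.03, adjusted p = 0.164 in limma-voom) was estimated. Among other fits, it was called with the replicate block (adjusted p = 0.0425) and without WT replicate 2 (-0.36, adjusted p = 0.0367). It was -0.06 without WT replicate 1 (adjusted p = 0.412, all limma-voom). Over all alternative fits its smallest adjusted p was 0.0236 (limma-voom).

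SLC38A1 (chr12:46183063-46270017, minus strand), a glutamine transporter, measured 446, 360.1 and 358 CPM in WT and 381, 368 and 348 CPM in THUMPD1 KO. As with its neighbour, the groups overlapped and WT replicate 1 was highest. Its log2 estimate was -0.10 (95% interval -0.28 to 0.07, adjusted p = 0.364 in limma-voom), and 0.01 without WT replicate 1. Over all alternative fits its smallest adjusted p was 0.0289 (limma-voom), past the threshold. For the 6 uncalled transporter genes the intervals, not the missed threshold, give the range of change that the spread between these libraries allows. They do not cover an effect of the clone.

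**Figure D2:**
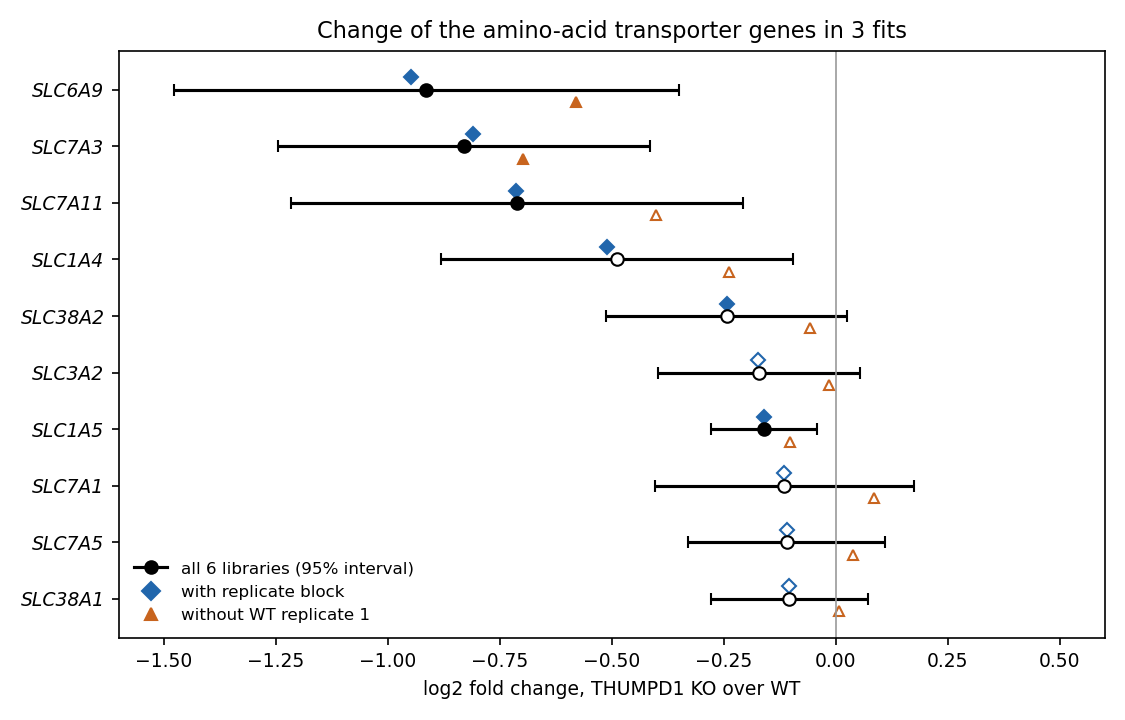
Log2 fold change of THUMPD1 KO over WT (x axis) for each transporter gene in limma-voom on all 6 libraries (black, with 95% interval), with the replicate block (blue) and without WT replicate 1 (orange), in which filled symbols mark an adjusted p under 0.05. The block leaves the estimates near the black points, whereas those without WT replicate 1 all lie to the right of them, and 3 of these lie above 0. WT replicate 1 was the highest library of each gene, so the direction of this shift follows from leaving it out.

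Levels between the genes were compared per kilobase of merged exons. This length joins all annotated exons of a gene, expressed or not, so the order depends on it. Without division by length, the WT means of SLC7A11 and SLC3A2 were 206 and 134 CPM. In WT the order of the means was SLC1A5 (81.6 CPM per kilobase), SLC7A5 (77.6), SLC38A2 (46.2), SLC7A1 (43.2), SLC38A1 (38.8), SLC7A11 (21.3), SLC3A2 (20.9), SLC6A9 (4.30), SLC1A4 (2.80) and SLC7A3 (1.497). The neighbours SLC7A5 and SLC38A2, SLC38A1 and SLC7A11, SLC3A2 and SLC6A9, and SLC1A4 and SLC7A3 did not overlap in their library values, while the other neighbours did. SLC7A11 stood above SLC3A2 in 1 of the 3 WT libraries, WT replicate 1. In THUMPD1 KO, SLC7A11 (12.7 CPM per kilobase) stood below SLC3A2 (18.6) in 3 of 3 libraries, without overlap, and SLC7A1 (39.7) and SLC38A2 (39.1) changed places with overlap. SLC1A5 stood at the 97.0th percentile of all tested genes in WT, and SLC7A3 at the 23.3rd.

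The profiles of the 10 genes over the libraries had much in common, and WT replicate 1 was the highest point of each. Over the 6 libraries the 45 pairs of genes had a median Pearson r of 0.92 (0.57 to 0.99), and 0.946 (0.527 to 0.994) for deviations from the genotype means. Of 12947 other genes with a mean count of at least 100, CHAC1, an enzyme that degrades glutathione (r = 0.995), CTH, which makes cysteine from cystathionine (0.994), PHYKPL (0.994), ZBTB25 (0.994) and SERPINB6 (0.993) had the profiles most like the mean of the standardized transporter profiles. For deviations from the genotype means these were SERPINB6 (0.999), MOAP1, TMEM181, LINC01409 and NHSL1 (each 0.998). All values describe 6 points that share library and depth, and of these genes only NHSL1 was called between genotypes (-1.07 on the log2 scale, limma-voom, adjusted p = 0.00207).

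Within 2 Mb of each gene, 12 to 91 other genes were tested, and their median log2 fold change lay between -0.07 (SLC38A1) and 0.17 (SLC7A5). Near the called genes it was 0.07 for SLC7A11, 0.04 for SLC6A9, 0.04 for SLC7A3 and 0.003 for SLC1A5.

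Leucine is one of the amino acids whose tRNA THUMPD1 serves, so the coding sequences were described as well. Leucine made up 11.7% (SLC6A9) to 15.5% (SLC3A2) of the codons of the 10 genes, against a median of 9.98% over 19747 coding genes. The leucine codons UUA, UUG, CUU and CUA made up 7.04% of leucine codons in SLC7A5, 14.9% in SLC6A9, 45.2% in SLC7A11 and 71.6% in SLC38A2, against a median of 38.5%. The called genes lay on both sides of that median.

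Of 28 other plasma-membrane amino-acid transporters, 11 were tested and 17 were below the filter, 6 of them with 0 counts in all libraries. Of the 11, 1 rose and 3 fell, with a median log2 fold change of -0.09, beside 26.7% called and a median of 0.016 over all tested genes. SLC1A1, a transporter of glutamate and cysteine, fell from 25.3 ± 1.17 to 8.61 ± 0.239 CPM (SD, n = 3), with a log2 fold change of -1.56 ± 0.08 (SE, adjusted p = 8.11e-07 in limma-voom), and -1.62 without WT replicate 1. Its WT replicate 1 was the lowest of the WT libraries, at 24.0 CPM, unlike in the 10 genes. SLC43A1, a carrier of large neutral amino acids, fell (-0.76 on the log2 scale, adjusted p = 0.00306 in limma-voom), as did the taurine transporter SLC6A6 (-0.25, adjusted p = 0.0134). As in the 10 genes, WT replicate 1 was the highest library of SLC43A1, at 20.3 CPM against 13.0 and 14.2 CPM in WT replicates 2 and 3. SLC7A6 rose (0.24, adjusted p = 0.00552 in limma-voom). SLC7A6OS, which overlaps it on the opposite strand, had a mean of 1166 counts beside its 4506. SLC43A2 (0.19, adjusted p = 0.0748) and SLC6A15 (-0.09, adjusted p = 0.102) did not pass. Without WT replicate 1 the calls were again 4, beside 28.1% of all tested genes.

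Of 17 transporters of lysosomes and mitochondria, 15 were tested, 4 rose and 1 fell, and the median log2 fold change was 0.14, again beside 26.7% called over all tested genes. SLC66A1, a lysosomal exporter of cationic amino acids, rose (0.42, adjusted p = 0.00773 in limma-voom), as did SLC25A44, a mitochondrial carrier of branched-chain amino acids (0.25, adjusted p = 0.00429), the lysosomal cystine exporter CTNS (0.26, adjusted p = 0.0149) and SLC36A4 (0.18, adjusted p = 0.0361). SLC25A15, the mitochondrial ornithine carrier, fell (-0.25, adjusted p = 0.00394 in limma-voom), and SFXN1, which brings serine into mitochondria, did not pass (0.12, adjusted p = 0.0516). Without WT replicate 1 the number called was 6 (28.1% of all tested genes were called). With the replicate block 9 genes were called, 8 higher and 1 lower (35.1% of all tested genes were called), and SFXN1 was one of them (limma-voom, adjusted p = 0.0361). The number called was 3 without WT replicate 3 (18.1% of all tested genes were called) and 3 without THUMPD1 KO replicate 2 (17.6%). In these 2 fits SLC36A4 (limma-voom, adjusted p = 0.148 and 0.140) and CTNS (adjusted p = 0.0564 and 0.0617) were lost. CTNS was also lost without THUMPD1 KO replicate 3 (adjusted p = 0.0593), and SLC36A4 without WT replicate 2 (adjusted p = 0.0770) or THUMPD1 KO replicate 1 (adjusted p = 0.0868, all limma-voom). TAX1BP3, on the strand opposite CTNS, had a mean of 667 counts beside its 799.

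Of 20 regulators of amino-acid transport genes and amino-acid sensors, 19 were tested, 5 fell and none rose, with a median of -0.20 on the log2 scale. Among all tested genes the share called was 26.7%, and 13.0% were called lower. ATF4 measured 626, 516 and 542 CPM in WT and 473, 425 and 422 CPM in THUMPD1 KO. The groups did not overlap, and ATF4 changed by -0.37 ± 0.08 in log2 units (SE, adjusted p = 0.00604 in limma-voom), and -0.27 without WT replicate 1 (adjusted p = 0.00648). CEBPB, a partner of ATF4 on its elements, fell (-0.52, adjusted p = 0.0232 in limma-voom), as did MYC (-0.31, adjusted p = 0.0119), the sestrin SESN3 (-0.31, adjusted p = 0.00136) and NFE2L2 (-0.24, adjusted p = 0.00565). NFE2L2 overlaps HNRNPA3 on the opposite strand, which had a mean of 35615 counts beside its 2286. SESN2, a sensor of leucine and itself a target of ATF4, measured 122, 58.7 and 69.1 CPM in WT and 58.5, 46.5 and 50.9 CPM in THUMPD1 KO, without overlap. Its log2 estimate was -0.63 (limma-voom, adjusted p = 0.0533), and it was called with the replicate block (adjusted p = 0.00162), without WT replicate 1 (-0.31, adjusted p = 0.0225), without WT replicate 2 (-0.85, adjusted p = 0.00717) and without WT replicate 3 (-0.73, adjusted p = 0.0489). Without WT replicate 1 the number called was 7 (28.1% of all tested genes were called). With the block 10 genes of the list were called, all lower, where 35.1% of all tested genes were called and 16.7% were lower. The number called was 3 on leaving out either THUMPD1 KO replicate 2 (17.6% of all tested genes were called) or THUMPD1 KO replicate 3 (18.6%). In these 2 fits CEBPB (limma-voom, adjusted p = 0.114 and 0.0757) and MYC (adjusted p = 0.0567 and 0.0584) were lost.

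**Figure D3:**
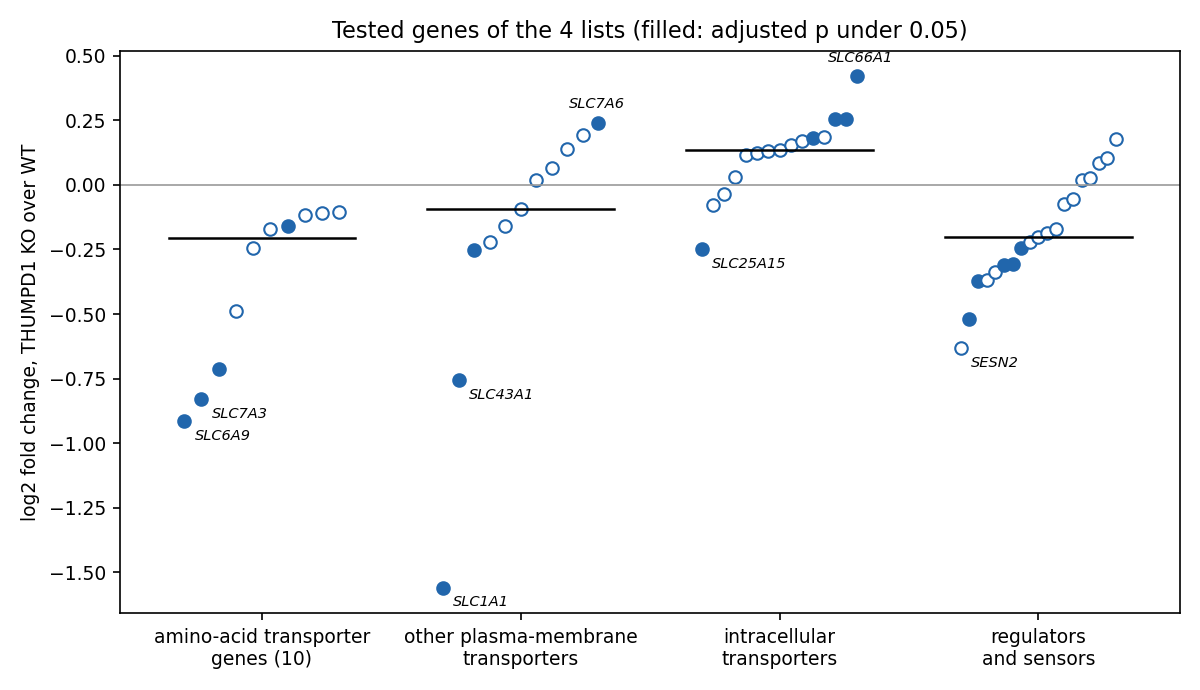
Log2 fold change of THUMPD1 KO over WT (y axis) for the tested genes of 4 lists, each in rising order, with black lines at the medians and filled points at an adjusted p under 0.05. All points of the 10 transporter genes lie below 0, the filled points of the intracellular transporters lie above 0 except SLC25A15, and those of the regulators and sensors all lie below 0.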

How the data were processed

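Total RNA of WT and THUMPD1 KO HEK-293T cells, isolated with Trizol, was depleted of ribosomal RNA and sequenced from stranded paired-end libraries. The authors aligned reads to hg38 with STAR and deposited RSEM expected counts per gene, unscaled, of which 7.56% are not whole; versions are not given in the sources used here. The methods name GENCODE 46; GENCODE 44 supplied names, positions, lengths and coding sequences here.

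Groups came from the labels. The fit followed the study's methods: genes reaching 1 CPM in 3 or more of the 6 libraries, quantile normalization, and limma-voom on genotype alone (limma 3.58.1, R 4.3.3). Tests were two-sided with Benjamini-Hochberg adjustment. The minimum of 3 libraries is not stated in the methods. edgeR 4.0.16 and DESeq2 1.42.0 were run on counts rounded to whole numbers, and the scripts were tested on simulated data. Merged exon lengths gave levels per kilobase.

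Equal replicate numbers were taken to pair libraries, although the labels do not say what the numbers mark. Deviations from the genotype means correlated at 0.219, 0.161 and 0.127 for numbers 1, 2 and 3 (12957 genes), and at -0.173 to 0.0763 for unequal numbers. Deviations within a genotype sum to 0, so positive values for equal numbers go with lower values for unequal ones. Between numbers 2 and 3 the unequal values were 0.0462 and 0.0763, so these numbers were less distinct. Fits with the block rest on this assumed pairing.

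Named genes were the 10 transporter genes, THUMPD1, ATF4, at most 6 genes of each other list by adjusted p, pseudogenes and overlapping genes, and 5 genes per measure of likeness. NHSL1 and CHAC1 entered by likeness; SLC7A8 and marker genes were named beside them as members of a complex or marker list. The genes, lists and tests were chosen with earlier results of these data known. Alternatives were other normalizations, filters, weights and tests, removal of trends along GC content and length, a replicate block, and omission of each library in turn.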

Additional observations from a re-analysis of the deposited data

How the results depend on the processing

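The number of transporter genes called, 4, became 1 without a CPM filter and ranged from 0 to 6 when each library was left out. With the replicate block it was 6. The share of all tested genes called, 26.7%, moved as well. It was 10.1% of 31730 genes without the filter and 17.6% to 28.1% when each library was left out. It was 35.1% with the replicate block, 36.5% with quality weights and 32.4% without both libraries numbered 1. With the GC and length trends removed it was 29.4%, and 37.4% with the block added. The counts below stand beside these shares. Leaving out each library moved the log2 fold change of SLC7A5 between -0.209 and 0.0388, of SLC7A1 between -0.233 and 0.0853, and of SLC38A1 between -0.163 and 0.00708, with the value above 0 in each case without WT replicate 1. Without both libraries numbered 1, SLC7A5 and SLC7A1 stood at 0.0132 and 0.0370, and with quality weights SLC7A1 stood at 0.00996. The cause was not tested. The other plasma-membrane transporters called were 7 in place of 4 with trends along GC content and length removed, without or with the replicate block. The intracellular transporters called, 5, became 9 with the replicate block, 9 with quality weights, 8 with the GC and length trends removed, 10 with these removed and the replicate block, 8 without both libraries numbered 1, and 3 to 6 when each library was left out. The regulators and sensors called, 5, became 10 with the replicate block, 8 with quality weights, 9 with the GC and length trends removed and the block, 8 without both libraries numbered 1, and 3 to 7 when each library was left out. For the transporter genes, THUMPD1 and the genes named from the other lists, 421 values under an alternative kept direction and side of the threshold. Another 37 no longer passed it, 30 newly passed it and 6 changed sign. These are refits of the same libraries, and genes that stayed uncalled count as kept. Those from the other lists were named for a small adjusted p, apart from ATF4. The fits that leave out a library have fewer samples. At 53 to 181 counts per library, SLC7A3 was the transporter gene with the least depth.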
